A study of Mus musculus with 9 samples.

Results

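The 7 genes described here, Apoa1, Apoa4, Apoe, Apoc1, Apod, Apob and Apom, encode apolipoproteins, the protein parts of the particles that carry lipids between cells. They were chosen by name, with their levels in these same libraries already known, out of 55536 genes in each table. Their own values are therefore given as a description, with no test. Of the 7, 4 (Apoa1, Apoa4, Apoe and Apoc1) passed the filter on low counts that 16213 genes passed, and 3 (Apod, Apob and Apom) did not.

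RNA-seq had been made from dissected mouse ovaries in 3 groups of 3 libraries. Tumour ovaries (granulosa cell tumour) and hyperplasia ovaries both carried FOXL2 WT/C134W, that is, 1 copy of the forkhead factor FOXL2 with the C134W change, and wild-type ovaries carried FOXL2 WT/WT. The labels name no driver, treatment or age and do not say whether each library is a separate animal, so the p-values cover library-to-library spread alone. Hyperplasia library 3 and tumour library 3 share the title stem A491, whose meaning the labels do not give.

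Apolipoproteins hold lipoprotein particles together, activate or block the enzymes that remodel them, and serve as ligands for uptake receptors. Most of the plasma supply is made in liver and intestine, whereas apoE is also made by macrophages and steroid-producing cells. In the ovary, high-density lipoprotein (HDL) is the class that reaches follicular fluid, and lipoprotein cholesterol is a substrate for steroid hormone synthesis. Within the set, ApoA-I is the main structural protein of HDL and apoA-IV is a related exchangeable protein of chylomicrons and HDL. ApoE is a ligand of several lipoprotein uptake receptors, and apoC-I is a small protein that inhibits lipoprotein lipase and apoE-dependent uptake. ApoB is the non-exchangeable scaffold of LDL, VLDL and chylomicrons, while apoD and apoM are lipocalins, the last of which carries sphingosine 1-phosphate on HDL.

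Library totals ran from 11661820 to 20890487 counts. Tumour library 2 and wild-type library 1 stood apart within their groups (correlation across genes of 0.881 to 0.891 and 0.903 to 0.912 with their group partners, against 0.946 to 0.956 among hyperplasia libraries), so results that rest on them are given with and without them. Levels of 1 gene across libraries are in CPM (counts-per-million units with TMM scaling of the library sizes), and levels of different genes are compared in TPM (transcripts-per-million units, which also divide by gene length). The 10 granulosa cell markers, which define the labelled tumour, summed to 4119 to 4901 CPM in tumours, 1028 to 3051 CPM in hyperplasia and 1815 to 3933 CPM in wild type. Inha, the inhibin alpha subunit, made up most of the tumour sum (2402, 2820 and 3021 CPM). Amh, a product of growing follicles, had 7.81, 0.0975 and 39.4 CPM in tumours, 12.4, 6.59 and 16.3 CPM in hyperplasia, and 222, 221 and 211 CPM in wild type, with tumours below wild type (log2 fold change -3.79, SE 1.17, adjusted p = 0.121, edgeR). Fshr, the FSH receptor, had 0 counts in tumour library 2, 0 of the 10 markers were called in any comparison, and these 3 genes were named after their values had been seen. Because these are whole ovaries, fewer cells of a type and less RNA per cell cannot be told apart.

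Per length, Apoe was by far the most abundant of the 7 in every library and made up 87.8% to 98.7% of their summed TPM. Apoe stood at 1363, 3804 and 1525 TPM in tumour libraries 1, 2 and 3, at 2889, 2152 and 2622 TPM in hyperplasia, and at 2368, 2300 and 2876 TPM in wild type. That placed it between rank 31 and rank 109 of all genes by TPM. Apoa1 came next in most libraries at 18.3 to 114 TPM, while Apoa4 stood at 1.32 to 83.4 TPM and Apoc1 at 1.19 to 74.6 TPM. Their order changed between libraries. Apoa1 was above Apoa4 in all 6 mutant libraries and in wild-type libraries 1 and 2, and below it in wild-type library 3. Apoc1 was above Apoa4 in all 3 hyperplasia libraries and in tumour libraries 1 and 3. It was above Apoa1 in hyperplasia library 3. Apod stayed at or below 1.13 TPM, and Apob and Apom were at or near 0 throughout.

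**Figure D1:**
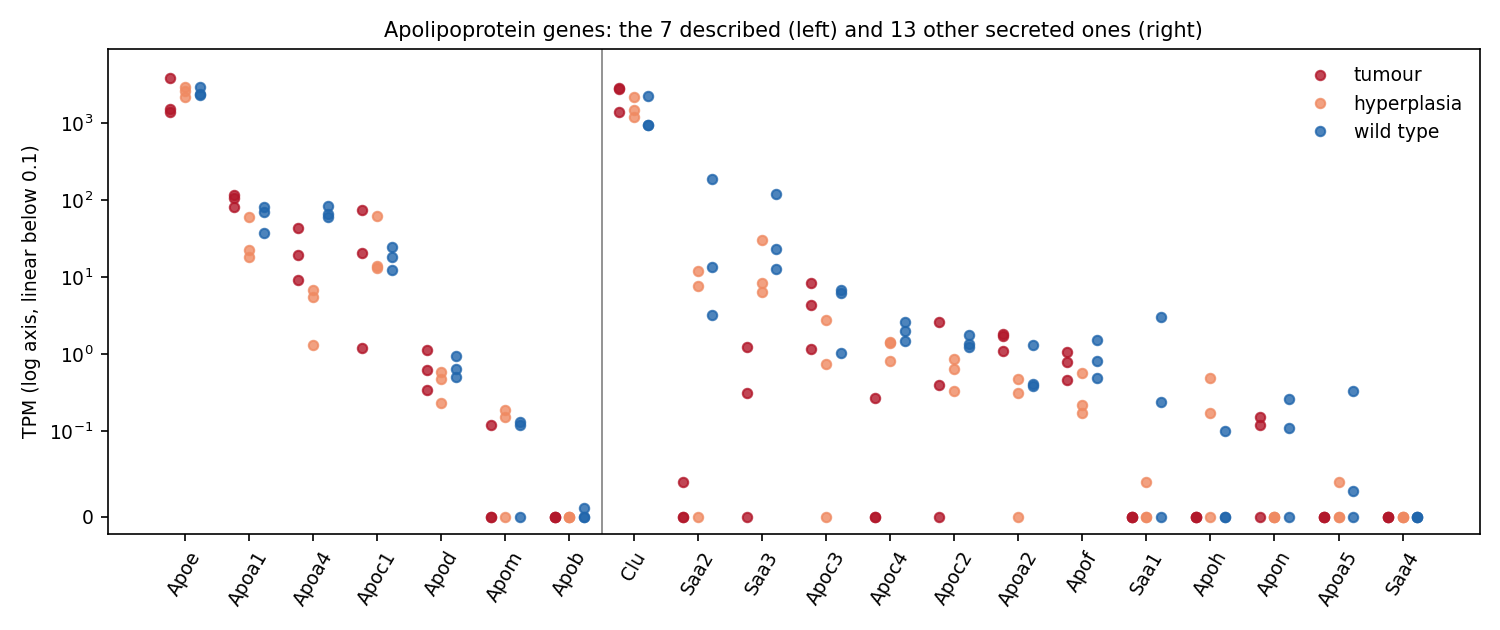
TPM (log axis, linear below 0.1) of the 7 apolipoprotein genes on the left and 13 other secreted apolipoprotein genes on the right, 1 point per library, with tumour, hyperplasia and wild type from left to right at each gene. Apoe and Clu lie at 939 TPM or above in every library, and Apob, Apom and most genes at the far right lie near 0.

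The 3 comparisons differed in how many genes they called, where called means a Benjamini-Hochberg adjusted p under 0.05 in edgeR's quasi-likelihood test over all 16213 genes. For tumour against wild type 1.6% of genes were called, 20.1% were under an unadjusted p of 0.05, and 24.1% had groups of libraries that did not overlap. For hyperplasia against wild type 0% were called (edgeR), 3.53% were under an unadjusted p of 0.05, DESeq2 called 18 genes and limma 1, and 9.81% did not overlap. For tumour against hyperplasia 0.185% were called, 14.1% were under an unadjusted p of 0.05, and 21.9% did not overlap. Of the 4 apolipoprotein genes that passed the filter, 0 were called in any of the 3 comparisons, which, since the genes were picked on these libraries, carries no weight either way.

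Apoa1 (ENSMUSG00000032083), which encodes the main HDL protein, lies on the plus strand at chr9:46228580-46230466 (GRCm38, GENCODE M21). It measured 59.1, 71.5 and 56.4 CPM in tumour libraries 1, 2 and 3, then 9.05, 11.1 and 30.5 CPM in hyperplasia, and 52.8, 37.2 and 18.2 CPM in wild type. All 3 tumour libraries lay above every other library, where 10.6% of all genes had tumours above wild type without overlap and 9.54% had tumours above hyperplasia without overlap, and the hyperplasia libraries overlapped wild type at their upper end. The means were 62.3 ± 8.05 CPM in tumours, 16.9 ± 11.8 CPM in hyperplasia and 36.1 ± 17.4 CPM in wild type (SD, n = 3 each).

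The gap between tumour and wild-type Apoa1 was narrow, 56.4 CPM in tumour library 3 against 52.8 CPM in wild-type library 1, and 81.1 TPM in tumour library 2 against 79.7 TPM in wild-type library 2. On the log2 scale the fitted difference was 0.79 (SE 0.50) for tumour against wild type, -1.09 (SE 0.50) for hyperplasia against wild type and 1.88 (SE 0.51) for tumour against hyperplasia. Over 17 alternative settings these ran from 0.47 to 1.17, from -1.84 to -0.71 and from 1.58 to 2.63, so no setting turned a direction. The lesion groups thus lay on opposite sides of wild type in the fit, but both comparisons share the wild-type libraries.

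Apoa4 (ENSMUSG00000032080) lies downstream in the same cluster on the plus strand, at chr9:46240696-46243459. In tumours it measured 9.73, 72.5 and 19.0 CPM, in hyperplasia 5.30, 1.3 and 6.81 CPM, and in wild type 97.9, 56.7 and 80.4 CPM. Every hyperplasia library was below every wild-type and every tumour library. Without overlap, 5.18% of all genes had hyperplasia below wild type and 9.54% had tumours above hyperplasia. For Apoa4, tumour library 2 alone among the tumours reached into the wild-type range. Means were 33.7 ± 33.9 CPM in tumours, 4.47 ± 2.84 CPM in hyperplasia and 78.3 ± 20.7 CPM in wild type (SD, n = 3 each).

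For Apoa4 the fitted log2 difference was -4.12 (SE 0.83) for hyperplasia against wild type, and stayed between -4.55 and -3.68 over 17 alternatives. For tumour against wild type it was -1.22 (SE 0.74). That value was -2.45 without tumour library 2 and -0.77 without tumour library 1, and in TPM the tumours (9.0, 42.5 and 19.2) did not overlap wild type (66.2, 60.8 and 83.4). For tumour against hyperplasia it was 2.90 (SE 0.79), and 1.66 without tumour library 2. Thus the size of the tumour differences for Apoa4 rested on tumour library 2, while their direction did not.

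A pair of predicted genes on the opposite strand, Gm47528 and Gm10680, overlap Apoa4. The sources used here do not state whether counting used strand, and without it their reads cannot be told apart from those of Apoa4. Gm47528 stood at 1.39, 3.71 and 0.672 CPM in tumours, 0.268, 0.290 and 0.288 CPM in hyperplasia, and 6.02, 3.30 and 8.22 CPM in wild type. Its hyperplasia libraries were the lowest of the 9, as for Apoa4, at levels under those of Apoa4 in the same libraries. Gm10680 did not follow Apoa4, with 18, 8 and 0 counts in tumours, 0, 2 and 0 in hyperplasia, and 60, 0 and 16 in wild type.

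The start regions of Apoa1 and Apoa4 are shown because these members of 1 cluster on 1 strand had the largest group differences of the set and differed in which group was highest. Apoe is added as the most abundant member. Each window is the RefSeq promoter of build GRCm38.p6, 250 bases before to 50 after the RefSeq start, and capitals mark matches to the motifs named after them. The table holds 6 of the 7 genes. Apoa1 is chr9:46228380-46228679 on the plus strand, Apoa4 is chr9:46240594-46240893 on the plus strand, and Apoe is chr7:19699139-19699438 on the minus strand.
Apoa1: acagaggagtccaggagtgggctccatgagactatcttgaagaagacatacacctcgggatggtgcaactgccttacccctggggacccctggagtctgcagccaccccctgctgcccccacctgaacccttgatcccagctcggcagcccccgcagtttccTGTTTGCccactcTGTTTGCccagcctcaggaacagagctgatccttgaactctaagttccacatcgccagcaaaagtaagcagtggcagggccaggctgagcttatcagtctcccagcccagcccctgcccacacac
Apoa4: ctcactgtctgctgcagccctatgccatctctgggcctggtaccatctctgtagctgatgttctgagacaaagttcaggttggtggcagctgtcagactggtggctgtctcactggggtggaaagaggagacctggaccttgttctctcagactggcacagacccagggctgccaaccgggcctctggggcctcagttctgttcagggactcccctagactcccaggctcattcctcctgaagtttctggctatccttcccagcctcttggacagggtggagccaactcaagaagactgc
Apoe: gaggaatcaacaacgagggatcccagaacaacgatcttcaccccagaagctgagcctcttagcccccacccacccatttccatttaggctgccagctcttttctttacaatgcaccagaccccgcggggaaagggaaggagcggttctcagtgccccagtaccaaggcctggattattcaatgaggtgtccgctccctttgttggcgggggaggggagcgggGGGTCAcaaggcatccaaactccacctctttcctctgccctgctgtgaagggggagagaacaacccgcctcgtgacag

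The letters searched, on both strands, were the core promoter box TATAAA, the forkhead site TGTTTNC of the factor class that FOXL2 belongs to, the NR5A nuclear receptor site AAGGTCA and the nuclear receptor half-site GGGTCA. They were chosen with the windows in view, and none of these 4 strings contains another. The Apoa1 window held 2 forkhead matches on the printed strand, at positions -88 and -75 relative to the RefSeq start, and no other match. The Apoa4 window held 0 matches to any of the 4, and the Apoe window held 1 half-site, at position -28. Forkhead matches were not particular to Apoa1 among the windows searched. Of those not printed, Apob held 1 forkhead match (-121) and 1 core promoter box. Apom held 1 forkhead match (-68) and 2 half-sites, and Apod held 0 matches. Of 32817 RefSeq promoter windows of this length, 20.5% held the forkhead string, 13.7% the half-site, 13.6% the core promoter box and 4.72% the NR5A string. The RefSeq start lay 50 bases from the GENCODE start for Apoa1 and 148 bases from it for Apoa4, and coincided with it for Apoe. A match describes letters in the window and is not a measured site.

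The ratio of the cluster members Apoa4 and Apoa1, taken in TPM within a library, did not overlap between the genotypes. Apoa4 was at 8.54%, 52.4% and 16.8% of Apoa1 in tumours, at 30.0%, 5.94% and 11.3% in hyperplasia, and at 95.3%, 76.2% and 227% in wild type. All 6 mutant libraries lay below all 3 wild-type libraries, and the tumour and hyperplasia libraries overlapped. A ratio within a library shows unequal change of the pair and does not say which of them changed. It was computed after the levels had been seen, for members already seen to differ between groups. How many other gene pairs part the libraries in this way was not computed, so the gap carries no weight as a result.

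**Figure D2:**
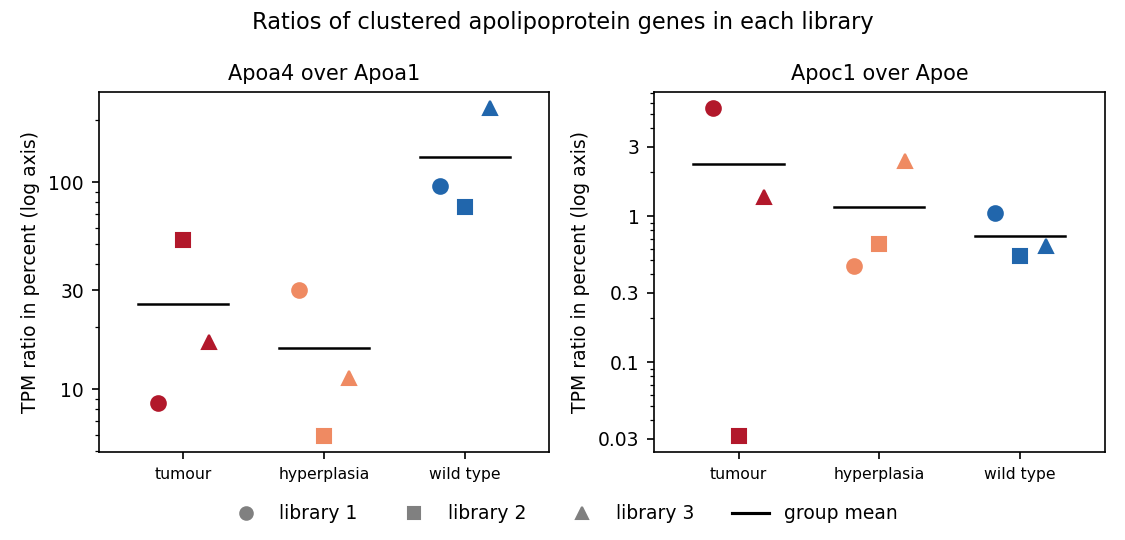
TPM ratio in percent (log axis) of Apoa4 over Apoa1 and of Apoc1 over Apoe in each library, with group means as bars. For Apoa4 over Apoa1 the wild-type libraries lie at 76.2% to 227% and the mutant ones at 5.94% to 52.4%, while for Apoc1 over Apoe the groups overlap.

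The other genes of that chromosome 9 cluster were low. Apoc3, whose protein slows clearance of triglyceride-rich particles, had 4, 25 and 8 counts in tumours, 2, 0 and 11 in hyperplasia, and 37, 3 and 19 in wild type. Its groups overlapped in all comparisons, with a fitted log2 difference of 0.08 (SE 1.11) for tumour against wild type. Apoa5, an activator of lipoprotein lipase-mediated clearance, had at most 2 counts in any library. In TPM, Apoc3 and Apoa5 lay below Apoa1 and Apoa4 in every library, although Apoa4 itself was low in hyperplasia (1.32 to 6.71 TPM).

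Markers of the main apolipoprotein-producing tissues were checked beside Apoa1 and Apoa4. The 12 hepatocyte markers summed to 1.85 to 29.2 CPM in tumours, 17.5 to 26.6 CPM in hyperplasia and 8.85 to 64.3 CPM in wild type, and Fga, Fgb, Fgg and Hnf4a were at 0 in all tumour libraries. The 7 enterocyte markers summed to 0.530 to 2.54 CPM in tumours, 0.815 to 2.54 CPM in hyperplasia and 2.71 to 3.73 CPM in wild type, with Fabp1, Fabp2, Cdx2 and Alpi at 0 in tumours, the same 4 and Cdx1 at 0 in hyperplasia, and Fabp2 at 0 in wild type. Only 4 of the 12 hepatocyte genes and 1 of the 7 enterocyte genes passed the filter and could be called. Of the 4, Cyp2e1 was called lower in tumours (0, 0 and 1 counts) than in wild type (114, 223 and 80 counts, adjusted p = 0.0201, edgeR). Over all genes 1.25% were called lower, and 5 of 17 alternatives lost the Cyp2e1 call. The 4 did not share a direction in the fit of tumour against wild type. Serpina1a (2.43, SE 1.65) and Ahsg (1.37, SE 1.12) lay above 0, while Hp (-5.87, SE 1.36) lay below it with Cyp2e1. The 1 tested enterocyte gene was not called. The enterocyte sum lay below Apoa1 in all 9 libraries, whereas the hepatocyte sum lay above it in hyperplasia libraries 1 and 2 and in wild-type library 1. Their part in these results was not tested.

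Apoe (ENSMUSG00000002985), whose protein docks particles to uptake receptors, lies on the minus strand at chr7:19696109-19699188. It measured 694, 3053 and 711 CPM in tumours, 1294, 975 and 1260 CPM in hyperplasia, and 1705, 954 and 1254 CPM in wild type. Tumour library 2 was the highest of the 9 and the other tumour libraries were the lowest of the 9, so the tumour group enclosed both other groups. The means, 1486 ± 1357 CPM in tumours, 1177 ± 175 CPM in hyperplasia and 1304 ± 378 CPM in wild type (SD, n = 3 each), differed by less than the tumour spread.

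No direction could be given for Apoe. Its fitted log2 difference was 0.19 (SE 0.56) for tumour against wild type but -0.89 without tumour library 2, and 0.34 (SE 0.56) for tumour against hyperplasia but -0.74 without that library. For hyperplasia against wild type it was -0.15 (SE 0.56) and 0.09 without wild-type library 1. In TPM the sign also turned in all 3 comparisons.

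**Figure D3:**
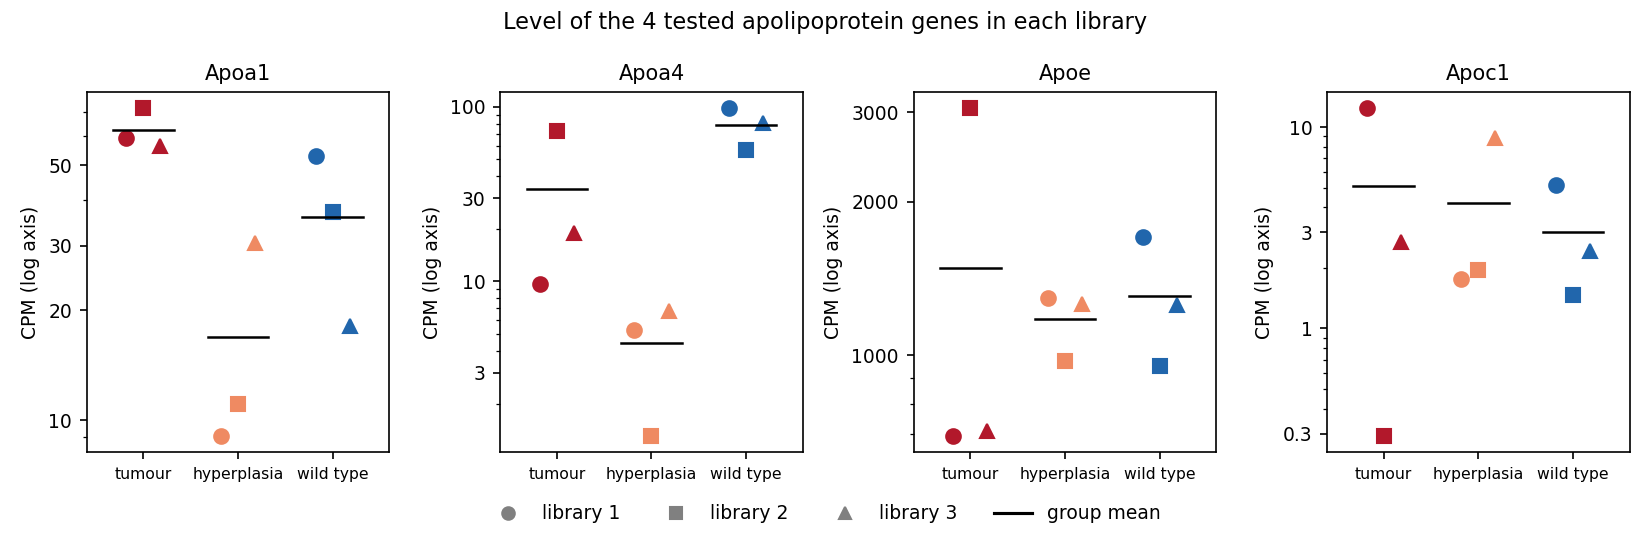
CPM (log axis) of Apoa1, Apoa4, Apoe and Apoc1 in each library, marked by library number, with group means as bars. Tumour Apoa1 lies above all other libraries and hyperplasia Apoa4 below all others, while Apoe and Apoc1 are spread most widely within the tumours, where library 2 is the highest for Apoe and the lowest for Apoc1.

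Macrophages are a known source of apoE, and their markers were lower in tumours by summed level. The 12 macrophage markers summed to 264, 622 and 245 CPM in tumours, 1178, 937 and 761 CPM in hyperplasia, and 1172, 869 and 984 CPM in wild type. The tumours did not overlap the other groups, and tumour library 2 was the highest of the tumours, as for Apoe. Lyz2 had the highest mean of the 12, at 134 CPM in tumours, 542 CPM in hyperplasia and 519 CPM in wild type. In the fit of tumour against wild type 11 of the 12 lay below 0, and Mertk lay above it (0.61, SE 0.55). Without overlap, 7 of the 12 had tumours below wild type, where 13.4% of all genes did. For tumour against wild type 1 of the 12, Itgam, was called lower (log2 fold change -1.65, adjusted p = 0.0451, edgeR), a call lost in 12 of 17 alternatives (adjusted p 6.46e-05 to 0.226). Of 8 markers of lipid-laden macrophages, 2 were called lower, Gpnmb (log2 fold change -6.39, SE 0.69) and Lgals3 (log2 fold change -4.25, SE 0.40), both at an adjusted p of 0.0185 in edgeR, calls lost in 5 and 3 of 17 alternatives in that order (adjusted p up to 0.104 and 0.0947). Over all genes 1.25% were called lower in tumours than in wild type. In that fit 7 of these 8 markers lay below 0, and Ctsk lay above it (0.33, SE 0.31). The list of 8 summed to 64.6 to 105 CPM in tumours, 449 to 1456 CPM in hyperplasia and 419 to 516 CPM in wild type. No gene of either list was at 0 throughout a group, and their part in the Apoe levels was not tested.

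Apoc1 (ENSMUSG00000040564) lies beside Apoe on the same strand, at chr7:19689481-19692660. It had 12.4, 0.293 and 2.69 CPM in tumours, 1.77, 1.96 and 8.82 CPM in hyperplasia, and 5.17, 1.47 and 2.41 CPM in wild type. The low tumour value is 3 counts, the floor below which a level was not told from 0, and the groups overlapped in every comparison. Means were 5.12 ± 6.40 CPM in tumours, 4.18 ± 4.02 CPM in hyperplasia and 3.02 ± 1.92 CPM in wild type (SD, n = 3 each).

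Fitted log2 differences for Apoc1 were 0.77 (SE 1.09) for tumour against wild type, 0.47 (SE 1.09) for hyperplasia against wild type and 0.30 (SE 1.08) for tumour against hyperplasia. They were -1.0 without tumour library 1, -0.70 without hyperplasia library 3 and -1.48 without tumour library 1, in the same order, so no direction held. Apoc1 and Apoe did not follow each other across libraries. Apoc1 was at 5.48%, 0.0313% and 1.35% of Apoe in TPM in tumours, at 0.457%, 0.644% and 2.38% in hyperplasia, and at 1.05%, 0.538% and 0.625% in wild type. Tumour libraries 1 and 2 were the highest and the lowest of the 9 in this ratio.

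Surface epithelium markers, keratins among them, were high and low in some of the same libraries as Apoc1. The 7 markers summed to 1755, 1.85 and 597 CPM in tumours, 223, 299 and 692 CPM in hyperplasia, and 227, 242 and 268 CPM in wild type. Tumour library 1 was the highest and tumour library 2 the lowest of the 9 in both measures, and hyperplasia library 3 was the highest of its group in both, whereas wild-type library 1 was the highest wild-type library for Apoc1 and the lowest for the markers. Of these 7 genes, 0 were called in tumour against wild type and none was at 0 throughout a group, and their part in the Apoc1 levels was not tested.

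**Figure D4:**
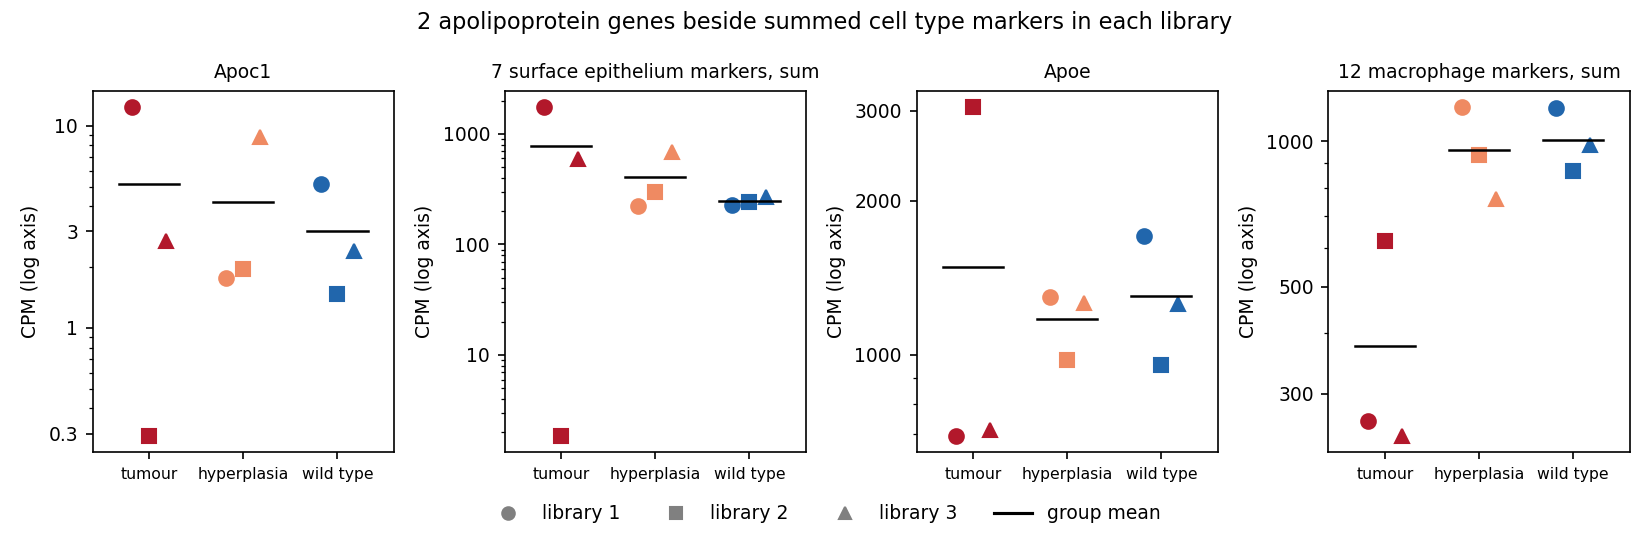
CPM (log axis) of Apoc1, of 7 summed surface epithelium markers, of Apoe and of 12 summed macrophage markers in each library, marked by library number, with group means as bars. Tumour library 2 has the lowest Apoc1 (0.293 CPM) and the lowest epithelium sum (1.85 CPM), and within the tumours the highest Apoe (3053 CPM) and the highest macrophage sum (622 CPM).

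The flanking genes of the chromosome 7 cluster were read as well. Apoc2, the protein cofactor that activates lipoprotein lipase, had 0, 12 and 1 counts in tumours, 3, 1 and 4 in hyperplasia, and 14, 5 and 6 in wild type. Apoc4, a minor VLDL apolipoprotein, had 0, 1 and 0 counts in tumours, 3, 4 and 6 in hyperplasia, and 12, 8 and 5 in wild type, and its tumour libraries lay below all others. Of genes that passed the filter, 13.4% had tumours below wild type and 12.4% had tumours below hyperplasia without overlap. Neither Apoc2 nor Apoc4 passed the filter, and both overlap the predicted gene Gm44805 on the same strand, which had 0 counts. Tomm40, the pore of the mitochondrial import complex next to Apoe, stayed between 59.8 and 79.6 TPM in all 9 libraries, with a fitted log2 difference of 0.04 (SE 0.24) for tumour against wild type. In CPM its tumour libraries (58.3, 87.1 and 61.4) lay above its hyperplasia libraries (52.1, 57.4 and 52.0), whereas in TPM these groups overlapped. Over all genes 9.54% had tumours above hyperplasia without overlap in CPM.

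The remaining 3 members were low in every library. Apod (ENSMUSG00000022548, chr16:31296192-31314808, minus strand), a lipocalin known in humans to bind progesterone and arachidonic acid, had 3, 11 and 3 counts in tumours, 2, 3 and 7 in hyperplasia, and 8, 8 and 7 in wild type. Apom (ENSMUSG00000024391, chr17:35128997-35132050, minus strand), the sphingosine 1-phosphate carrier, had 1, 0 and 0 counts in tumours, 0, 1 and 2 in hyperplasia, and 2, 0 and 1 in wild type. Apob (ENSMUSG00000020609, chr12:7977648-8016835, plus strand), the scaffold of LDL and VLDL, had 1 count in all 9 libraries, in wild-type library 2. The 0 counts of Apob in the tumour group allow a level of up to 0.0805 CPM and those in hyperplasia up to 0.0562 CPM (3 counts over the group, counting error only). In CPM Apod was lower in hyperplasia (0.107, 0.217 and 0.335) than in wild type (0.398, 0.471 and 0.402) without overlap, in TPM these groups overlapped, and the tumours overlapped both. Of the genes that passed the filter, 5.18% had hyperplasia below wild type without overlap. Hyperplasia libraries 1 and 2 were at or under the floor of 3 counts for Apod, so a group difference was not established. For Apob and Apom, differences between groups were not detectable at this depth.

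The secreted apolipoproteins outside the set included 1 with a level near that of Apoe. Clu encodes clusterin (apolipoprotein J), an extracellular chaperone found on HDL, and stood at 2767, 1387 and 2858 TPM in tumours, 1449, 1176 and 2148 TPM in hyperplasia, and 946, 939 and 2218 TPM in wild type. In CPM its tumour libraries lay above all others (log2 fold change 0.94, SE 0.40, adjusted p = 0.229 against wild type, edgeR), whereas in TPM they overlapped both groups, and it was named after its values had been seen. In CPM, 10.6% of all genes had tumours above wild type and 9.54% had tumours above hyperplasia without overlap. Of the 13 genes in this list 4 passed the filter and 0 were called in any comparison, and their median log2 difference for tumour against wild type was -3.45, against 0.01 over all genes. That median rests on the acute-phase genes Saa2 and Saa3. Saa2 had 1, 0 and 0 counts in tumours, 52, 28 and 0 in hyperplasia, and 1474, 67 and 12 in wild type. Saa3 had 0, 1 and 3 counts in tumours, 25, 86 and 38 in hyperplasia, and 756, 76 and 46 in wild type. Wild-type library 1 was the highest of the 9 for both. Saa genes are near copies of each other, so the split of reads between them is uncertain.

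Which profiles were most like those of the set was measured by the root mean square difference of log2 CPM, each gene centred on its own mean over 9 libraries, among 13361 genes. Predicted loci, clones and antigen receptor segments were left out of these genes. For Apoa1 the closest were Mycbpap (0.45), Kazald1 (0.50) and Ntf5 (0.53), against a spread of Apoa1 itself of 1.03. Mycbpap stood at 4.63, 4.49 and 5.21 CPM in tumours, 1.18, 1.16 and 3.55 CPM in hyperplasia, and 2.69, 2.41 and 1.15 CPM in wild type, so that its tumour libraries, like those of Apoa1, lay above all others. For Apoe they were Ncald, Tmem44 and Ninj1 (0.22 each, own spread 0.62). Ncald, a neuronal calcium sensor, had 32.3, 124 and 37.0 CPM in tumours, 71.2, 42.0 and 42.7 CPM in hyperplasia, and 79.6, 41.2 and 43.9 CPM in wild type, again highest in tumour library 2.

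Among the genes compared Apoa4 had no close counterpart. Its nearest there were Slc18a2 (1.10), Alpk3 (1.17) and Cbs (1.18), set against its own spread of 2.01. The predicted gene Gm47528, which overlaps Apoa4, was left out of that search. Its fitted log2 differences were near those of Apoa4. They were -1.61 for tumour against wild type, -4.34 for hyperplasia against wild type and 2.73 for tumour against hyperplasia. The nearest to Apoc1 were Spint2 (0.48), Necab3 (0.51) and Bicdl1 (0.53), with an own spread of 1.38. Spint2, a membrane serine protease inhibitor of epithelia, had 196, 12.8 and 95.2 CPM in tumours, 60.8, 62.9 and 121 CPM in hyperplasia, and 189, 48.6 and 69.4 CPM in wild type. These rankings describe 9 libraries and say nothing of shared control.

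Genes related to apolipoproteins by function, family or name were read as 8 lists of 94 genes, with none of the 7 among them. Of these 65 passed the filter. For tumour against wild type 2 were called higher and 2 lower, where over all genes 0.352% were called higher and 1.25% lower. For hyperplasia against wild type 0 were called by edgeR or DESeq2 (4 at an unadjusted p under 0.05, where 3.53% of all genes were). For tumour against hyperplasia edgeR called 0 (19 at an unadjusted p under 0.05, where 14.1% of all genes were) and DESeq2 11. The numbers that DESeq2 called over all genes are given in the last section.

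Among 17 tested genes of lipoprotein receptors and uptake, Sort1 rose and Msr1 fell in tumours relative to wild type. Sort1 encodes sortilin, a sorting receptor that binds apoB and apoE particles, and had 153, 378 and 129 CPM in tumours, 116, 96.4 and 90.3 CPM in hyperplasia, and 21.5, 41.0 and 47.0 CPM in wild type. The 3 groups did not overlap, with tumours above hyperplasia and hyperplasia above wild type. Without overlap, 10.6% of all genes had tumours above wild type, 9.54% had tumours above hyperplasia and 4.63% had hyperplasia above wild type. The Sort1 log2 fold change for tumour against wild type was 2.59 (SE 0.46, adjusted p = 0.0404, edgeR), with adjusted p from 3.87e-06 to 0.117 over 17 alternatives, 10 of which lost the call, and the fold change was 1.95 without tumour library 2.

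Msr1 encodes the class A scavenger receptor of macrophages. It had 1.26, 1.85 and 1.60 CPM in tumours, 6.48, 9.78 and 5.51 CPM in hyperplasia, and 3.93, 9.36 and 11.2 CPM in wild type, with tumours below all others. The log2 fold change for tumour against wild type was -2.38 (SE 0.47, adjusted p = 0.0471, edgeR), and the call was lost in 12 of 17 alternatives (adjusted p 0.000117 to 0.266). In TPM tumours and wild type overlapped. In CPM, 13.4% of all genes had tumours below wild type and 12.4% had tumours below hyperplasia without overlap. The macrophage markers given beside Apoe were lower in the same libraries.

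The median of this receptor list was -0.09 on the log2 scale, against 0.01 over all genes, with 8 of 17 genes fitted above 0. Named after their values had been seen, for their roles, were Scarb1 and Lrp1. Scarb1, the HDL receptor of steroid-producing cells, had 336, 1469 and 356 CPM in tumours, 821, 511 and 374 CPM in hyperplasia, and 2086, 387 and 574 CPM in wild type, so the groups overlapped widely. Lrp1, a large endocytic receptor for apoE, had a log2 difference of 0.09 (SE 0.51) between tumour and wild type.

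**Figure D5:**
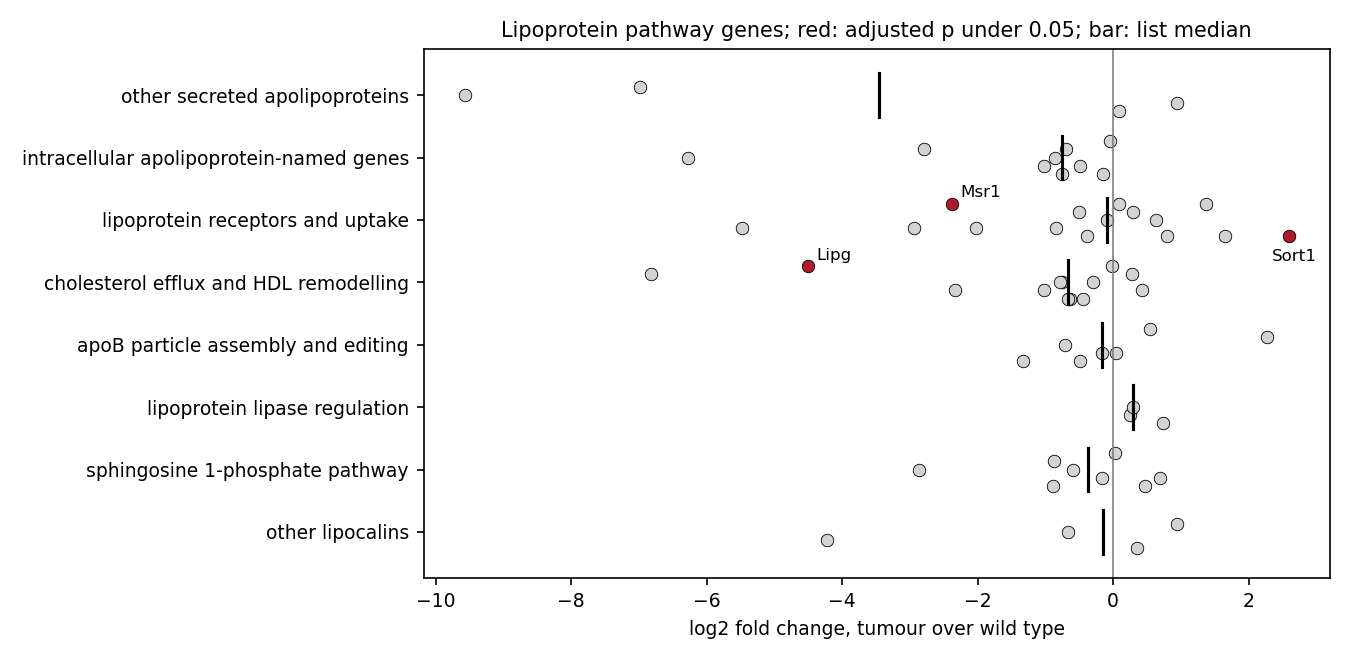
Log2 fold change for tumour over wild type of tested genes in 8 lists of lipoprotein-related genes, 1 point per gene with 2 genes of the receptor list not drawn, with red for an adjusted p under 0.05 (edgeR) and a bar at each list's median. Sort1 lies right of 0, Msr1 and Lipg left of it, and the medians, taken over all tested genes of each list, run from -3.45 to 0.29.

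Of 13 tested genes of cholesterol efflux and HDL remodelling, Lipg fell in tumours and 12 were not called. Lipg encodes endothelial lipase, a phospholipase of HDL, and had 18.4, 8.97 and 19.9 CPM in tumours, 541, 297 and 101 CPM in hyperplasia, and 760, 80.3 and 230 CPM in wild type. Every tumour library lay below every other library, where 13.4% of all genes had tumours below wild type and 12.4% below hyperplasia without overlap. The log2 fold change for tumour against wild type was -4.50 (SE 0.92, adjusted p = 0.0495, edgeR), -3.30 without wild-type library 1, and the call was lost in 11 of 17 alternatives (adjusted p 8.42e-07 to 0.135). Of 7 luteal markers 3 were called lower in tumours than in wild type, where 1.25% of all genes were. The 7 summed to 2497 to 3813 CPM in tumours, 9831 to 17436 CPM in hyperplasia and 12504 to 27118 CPM in wild type. Akr1c18 was at 0 in tumour library 2. Of the 17 alternatives 11 lost the call for Prlr, 9 for Cyp11a1 and 6 for Ptgfr, and their part in the Lipg levels was not tested.

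The list's median was -0.66 on the log2 scale, with 11 of 13 genes fitted below 0. Named after its values had been seen, Abca1, the transporter that loads cholesterol onto apoA-I, averaged 290 ± 68.8 CPM in tumours, 343 ± 59.1 CPM in hyperplasia and 392 ± 228 CPM in wild type (SD, n = 3 each), with a log2 difference of -0.44 (SE 0.47) for tumour against wild type.

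The lists on apoB particle assembly (7 tested), lipoprotein lipase regulation (3), the sphingosine 1-phosphate pathway (8), other lipocalins (4) and intracellular apolipoprotein-named genes (9) had 0 called genes in all 3 comparisons by edgeR. Their median log2 differences for tumour against wild type were -0.17, 0.29, -0.38, -0.16 and -0.75 in that order, against 0.01 over all genes. In the last list all 9 tested genes were fitted below 0, and 3 of the 9 had tumours below wild type without overlap, where 13.4% of all genes did.

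How many list genes were called turned on single libraries. For tumour against wild type 0 were called without any 1 of the tumour libraries, without any 1 of the wild-type libraries, and without hyperplasia library 2. There were 2 without hyperplasia library 1 and 7 without hyperplasia library 3, and 0 when the title stem entered the model as a term.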

How the data were processed

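Per the labels' protocols, dissected ovaries gave Trizol RNA and the kit was the stranded Illumina TruSeq one for mRNA. RSEM 1.3.1, STAR 2.7.1a, FastQC, Picard 2.8.1 and build GRCm38 stand in the submitters' processing notes, with no step assigned to each. The authors deposited expected counts, TPM and FPKM per gene and library, per the file headers. Of the deposited expected counts above 0, 25.6% were not whole, since RSEM shares ambiguous reads between genes. The deposited FPKM values were not used. All 55536 identifiers matched GENCODE M21, which gave symbols and coordinates.

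Expected counts were rounded and fitted with edgeR 4.0.16 (R 4.3.3): TMM scaling (factors 0.797 to 1.078), a count minimum of 10 and total minimum of 15, and quasi-likelihood testing from 1 joint fit of the 9 libraries. The common biological coefficient of variation was 0.43. Alternatives were DESeq2 1.42.0 size factors, its Wald test, library totals, no filter, limma 3.58.1 on log2(TPM + 1) for genes with a mean TPM of at least 1, only the 2 groups compared, a term for the shared title stem, and leaving out each library. Leaving out wild-type library 1 with tumour library 2 was added after the data had been seen. The fit was tested on simulated counts. No 2 libraries agreed within sampling noise.

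The 7 genes, the 8 lists of related genes and 12 lists of cell type markers were chosen with earlier results of these data known. Named besides the 7 and their cluster neighbours are up to 4 called genes per list with the smallest adjusted p and the 3 genes closest in profile to each member with a mean of at least 1 CPM. Not all marker genes so named are given, and 2 genes of the receptor list are not reported here. A floor of 3 counts equals 0.144 to 0.293 CPM in single libraries, for counting error only.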

Additional observations from a re-analysis of the deposited data

How the results depend on the processing

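The numbers of genes called over all genes depended on the tool and on single libraries, and the cause was not tested. For tumour against wild type 259 genes were called, 721 with no low-count filter, 1747 with the DESeq2 Wald test, 0 with a term for the shared title stem, 8 without wild-type library 1 and tumour library 2 together, and 0 to 404 when 1 library was left out. Of the listed lipoprotein-related genes 4 were called, against 8 with library totals, 14 with no filter, 16 with DESeq2, 0 with the stem term, 0 without both libraries and 0 to 7 with 1 library left out. For hyperplasia against wild type 0 genes were called, 1 with library totals, 2 with no filter, 18 with DESeq2, 1 with limma on TPM, 3 with only the 2 groups, 2 without both libraries and 0 to 3 with 1 library left out. For tumour against hyperplasia 30 were called, 57 with library totals, 199 with no filter, 816 with DESeq2, 58 with limma on TPM, 1 with only the 2 groups, 12 with the stem term, 0 without both libraries and 0 to 128 with 1 library left out. Of the listed genes 0 were called there, 3 with no filter, 11 with DESeq2 and 0 to 1 with 1 library left out.

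Apoa1 and Apoa4 kept their direction in all 3 comparisons under all 17 alternatives, while Apoe and Apoc1 turned in each comparison under at least 2. Levels under 3 counts in a library, such as those of Apob and Apom, were not told from 0. No paired analysis was possible because the labels give no replicate numbers that the groups share, and only 1 pair of libraries has a title stem in common.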
